A study of Mus musculus with 41 samples.

Results

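Spleens of untreated mice that lacked both p53 and the inducible nitric oxide synthase NOS2 (DKO) were set against spleens of untreated wild type mice (WT) on a one-channel miRNA array. The comparison uses 11 of the 41 arrays of the series, 6 DKO controls (p53-/-NOS2-/-) and 5 WT controls (p53+/+NOS2+/+), taken by genotype and treatment from the sample titles. All animals were of the strain given as C57BL, the RNA was total RNA of whole spleen, and the controls received saline. Other arrays of the series hold NOS2 knockout (NOS2KO) and p53 knockout (p53KO) mice, and each genotype was also given C. parvum, a bacterial preparation used to inflame the spleen. The series text mentions 4 or 5 mice per group and does not name the DKO group, and age, sex, the kind of knockout allele and any pooling of animals are not stated there. The arrays carry no probe for the messenger RNAs of p53 or NOS2, so the genotypes could not be checked on them, and the p-values measure the spread between arrays.

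Of 637 probe rows, 343 had at least 3 values in each of the DKO and WT controls and were tested. A DKO control gave values for 391 to 464 rows and a WT control for 310 to 387, so the groups did not overlap in the number of probes with a value. The 310 belonged to WT control 2, the lowest count in the series, and the other WT controls had 365 to 387. The groups thus came close, with 387 in the highest WT control and 391 in the lowest DKO control. Levels are log2 signals after quantile normalization, and a change is DKO minus WT on that scale. Each array of the series had a deposited miR-370 signal either above or not above 10, and 49 of 337 probes (14.5%) differed between the arrays above and those not above it, within groups. Only the DKO controls and the DKO and NOS2KO C. parvum groups hold arrays on both sides. They alone carry that estimate, DKO control 6 included. DKO control 6 was the only one of the 11 arrays above 10, and whether this division is technical was not tested. Results are therefore also given without DKO control 6, where all 10 arrays lie on the same side.

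MicroRNAs are short RNAs that guide Argonaute proteins to messenger RNAs through the seed, the bases 2 to 8 of the mature strand. The tumour suppressor p53 raises the transcription of some miRNAs, such as miR-34a, and promotes the processing of others, such as miR-16 and miR-143, while NOS2 makes nitric oxide in activated macrophages. The mouse spleen filters blood, houses lymphocytes and myeloid cells, and makes red blood cells in the adult. Fewer cells of a type and less RNA per cell cannot be told apart in RNA of the whole organ.

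Mature sequences of miRNAs on which the results turn are shown from RefSeq (GRCm38.p6), written 5′ to 3′ with the seed in capitals. For miR-699 the RefSeq data used here held no mature sequence, so none is shown. The sequences of the array probes are not used here, and the probe endings -a and -p, whose meaning no source used here gives, were not merged. Where no ending is written, the -a probe is meant. The erythroid pair and the miRNAs that were lower in DKO come before the families whose members share a seed.
mmu-miR-451a: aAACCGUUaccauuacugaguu
mmu-miR-144-3p: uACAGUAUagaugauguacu
mmu-miR-703: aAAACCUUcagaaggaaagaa
mmu-miR-136-5p: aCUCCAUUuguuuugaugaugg
mmu-let-7f-5p: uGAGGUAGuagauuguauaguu
mmu-let-7a-5p: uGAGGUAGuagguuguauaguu
mmu-let-7i-5p: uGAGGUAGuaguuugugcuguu
mmu-miR-16-5p: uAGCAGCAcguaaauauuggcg
mmu-miR-195a-5p: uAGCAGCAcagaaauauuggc
mmu-miR-497a-5p: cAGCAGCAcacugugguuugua
mmu-miR-30c-5p: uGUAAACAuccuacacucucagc
mmu-miR-181c-5p: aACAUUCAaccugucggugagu
In all, 574 of the 637 rows matched a RefSeq miRNA by name. The let-7f sequence differs from that of let-7a at 1 of 22 bases, and miR-195a differs from miR-16 at 2 of the 21 bases they share, so that probes for such pairs may share signal.

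DKO control spleens had more miR-451, more U11 small nuclear RNA (named miR-801 on the array) and more let-7f than WT control spleens, and less miR-699, miR-703 and miR-136. Both miR-16 probes were also higher, and lost their calls without DKO control 6 (adjusted p = 0.0698 and 0.0574) and without WT control 2 (changes of 0.44 and 0.43). In all, 47 of 343 probes (13.7%) passed an adjusted p of 0.05 in limma's moderated test with Benjamini-Hochberg adjustment, 20 of them higher in DKO (5.83%) and 27 lower (7.87%). The median change over all tested probes was −0.02, and 107 probes had an unadjusted p under 0.05. The changes of the 47 probes ran from −1.97 to 1.78. In 20 of the 47 the DKO and WT values did not overlap at all, 7 higher and 13 lower, against 10 (2.92%) and 20 (5.83%) over all tested probes. The 9 calls that held in all 21 alternative settings were the higher miR-451, both miR-801 probes and the -p probe of miR-335, and the lower miR-136, the -p probe of miR-196a-2, miR-680, miR-699 and miR-703, and all 47 kept their direction. When the spread was estimated from the 11 arrays alone, 14 probes passed, and the count was 19 without DKO control 1, 28 without DKO control 2, 31 without WT control 2 and 29 without WT control 3.

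**Figure D1:**
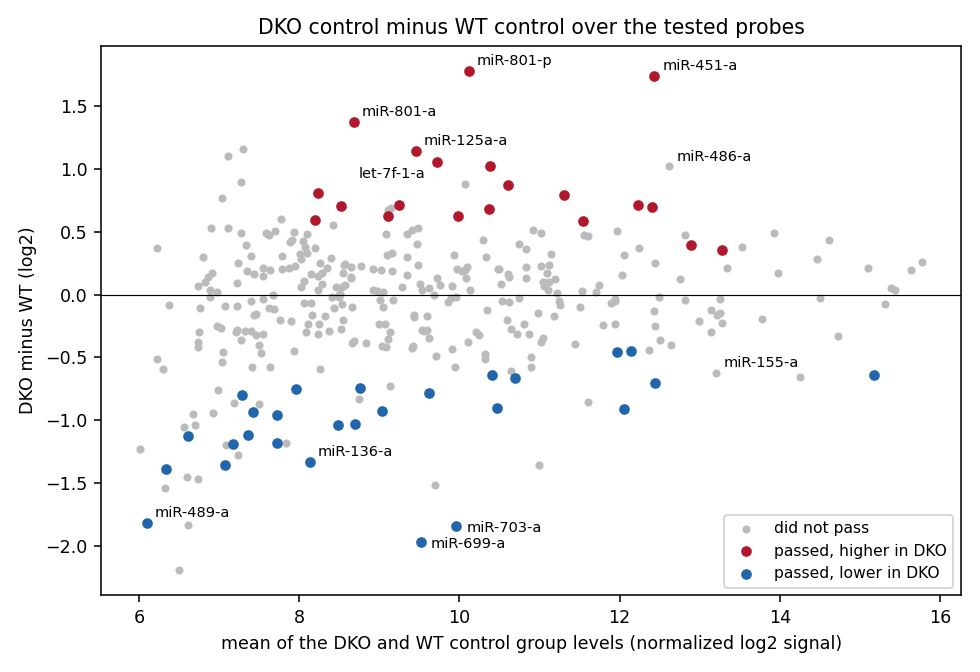
Change of each of the 343 tested probes, DKO control minus WT control (log2, vertical axis), against the mean of the DKO and WT control levels (normalized log2 signal, horizontal axis). Red points are the 20 probes that passed higher in DKO, blue points the 27 that passed lower and grey points those that did not pass. The miR-801 and miR-451 probes stand at the top and miR-699 and miR-703 at the bottom.

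Of 2 tested erythroid probes, miR-451 passed as higher in DKO controls and miR-486 did not pass. miR-451, which red cell precursors make in large amounts and which Argonaute 2 cuts out of its hairpin without Dicer, ranged from 13.06 to 13.63 with a median of 13.27 in the 6 DKO controls, and was 11.83, 10.99, 11.45, 11.97 and 11.58 in the 5 WT controls. Every DKO control lay above every WT control, by at least 1 unit of the log2 scale. The mean was 13.31 ± 0.25 (SD, n = 6) in DKO and 11.56 ± 0.38 (SD, n = 5) in WT, a change of 1.74 ± 0.32 (SE) or 3.34-fold (limma, adjusted p = 0.000325), and 1.71 without DKO control 6 (adjusted p = 0.0011). Its -p probe changed by 0.53 ± 0.26 and did not pass (adjusted p = 0.159).

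miR-144 shares a primary transcript with miR-451 and also acts in red cell precursors. It had a value on all 6 DKO controls, between 8.11 and 8.95 with a median of 8.63, and on 0 of the 5 WT controls. Why a cell is missing is not stated, so the level in WT is not known and no fold can be given (Fisher's exact test on the presence of a value, two-sided, p = 0.00216, adjusted p = 0.608). That p is the smallest the test can give with 6 against 5 arrays. miR-486, which red cell precursors also carry, ranged from 12.82 to 13.63 with a median of 12.99 in DKO, and was 11.28, 12.40, 11.87, 12.40 and 12.57 in WT. These groups did not overlap either, yet the change of 1.02 ± 0.38 did not pass (limma, adjusted p = 0.057). Its adjusted p was 0.0384 when only the 11 arrays were fitted. The mean of miR-451 and miR-486, the erythroid markers with enough values, ranged from 12.96 to 13.57 over the DKO controls and from 11.55 to 12.19 over the WT controls.

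miR-801 is listed in RefSeq as Rnu11, the U11 small nuclear RNA of the minor spliceosome, and is therefore no miRNA. Its -p probe ranged from 10.71 to 11.34 with a median of 10.94 in DKO controls, and was 8.55, 10.39, 8.56, 9.38 and 9.25 in WT controls. Its -a probe ranged from 9.08 to 9.66 with a median of 9.39 in DKO, and was 7.39, 8.40, 7.53, 8.33 and 8.33 in WT. All DKO values exceeded all WT values for both probes, although WT control 2 came close with the -p probe. The changes were 1.78 ± 0.26 (3.44-fold, adjusted p = 8.82e-06) for the -p probe and 1.38 ± 0.26 (2.60-fold, adjusted p = 0.000461) for the -a probe. Without DKO control 6 they were 1.80 and 1.32.

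Among the falls, miR-699 stood first. This probe ranged from 8.15 to 9.15 with a median of 8.51 in DKO controls, and was 10.89, 10.35, 10.45, 10.66 and 10.21 in WT controls. The lowest WT control exceeded the highest DKO control by more than 1 log2 unit. It fell by 1.97 ± 0.28 (SE, to 0.255 of the WT level, adjusted p = 8.82e-06), and its -p probe fell by 0.79 ± 0.21 (adjusted p = 0.0154). The miR-703 probe ranged from 8.33 to 9.75 with a median of 9.04 in DKO, and was 11.34, 10.66, 11.08, 10.89 and 10.45 in WT. Its groups did not overlap, and it fell by 1.84 ± 0.33 (adjusted p = 0.000207). The -p probe of miR-703 changed by −0.35 ± 0.21 and did not pass (adjusted p = 0.271).

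Both names lie in the range from miR-680 to miR-721, names given to mouse miRNAs that are mostly of unknown function. Since no mature RefSeq sequence was found for miR-699, its result is that of the probe so named. Of 39 tested probes with such names, 0 were higher and 8 lower (20.5% called), with a median change of −0.58. Over all tested probes 5.83% were higher and 7.87% lower, with a median of −0.02. This group of names was picked after the values were seen, so its count and median only describe it. miR-680 fell by 1.18 ± 0.29 (adjusted p = 0.00879) and miR-712-5p by 1.03 ± 0.31 (adjusted p = 0.0295). The -p probe of miR-680 changed by −0.28 ± 0.35 and did not pass (adjusted p = 0.628). The -p probes of miR-682 and miR-700 passed with changes of −1.36 and −0.93. Of these calls, that of miR-712-5p was lost without WT control 2 or DKO control 1 or 2 (adjusted p from 0.0522 to 0.106), and that of miR-700 without WT control 1 or DKO control 1 or 4 (adjusted p from 0.0682 to 0.0748). Over all 20 settings that tested it, the miR-700 call held in 14, and its largest adjusted p was 0.624 (limma). The miR-682 call was lost without any 1 of 8 arrays, WT controls 1, 2, 4 and 5 and DKO controls 1, 2, 4 and 6 (adjusted p from 0.055 to 0.152).

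miR-136 is encoded in the imprinted Dlk1-Dio3 cluster, a large group of miRNAs expressed from the maternal chromosome. It ranged from 6.93 to 7.81 with a median of 7.47 in DKO controls, and was 8.84, 9.12, 8.63, 8.73 and 8.68 in WT controls. No DKO control reached the lowest WT control, and it fell by 1.33 ± 0.29 (adjusted p = 0.00332), and by 1.31 without DKO control 6. Of 18 tested -a probes of the cluster, 1 was lower and 0 were higher, with a median change of −0.01. Over all tested probes 7.87% were lower and 5.83% higher. The neighbouring miR-337 changed by 0.43 ± 0.23 (adjusted p = 0.211) and miR-433-3p by −0.46 ± 0.38 (adjusted p = 0.468). The -p probe of miR-431, also a neighbour, changed by −1.45 ± 0.58 and did not pass (adjusted p = 0.101). Among the -p probes of the cluster that of miR-543 passed, at −0.64 ± 0.22 (adjusted p = 0.0488), and it lost that call without DKO control 6 (adjusted p = 0.104).

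**Figure D2:**
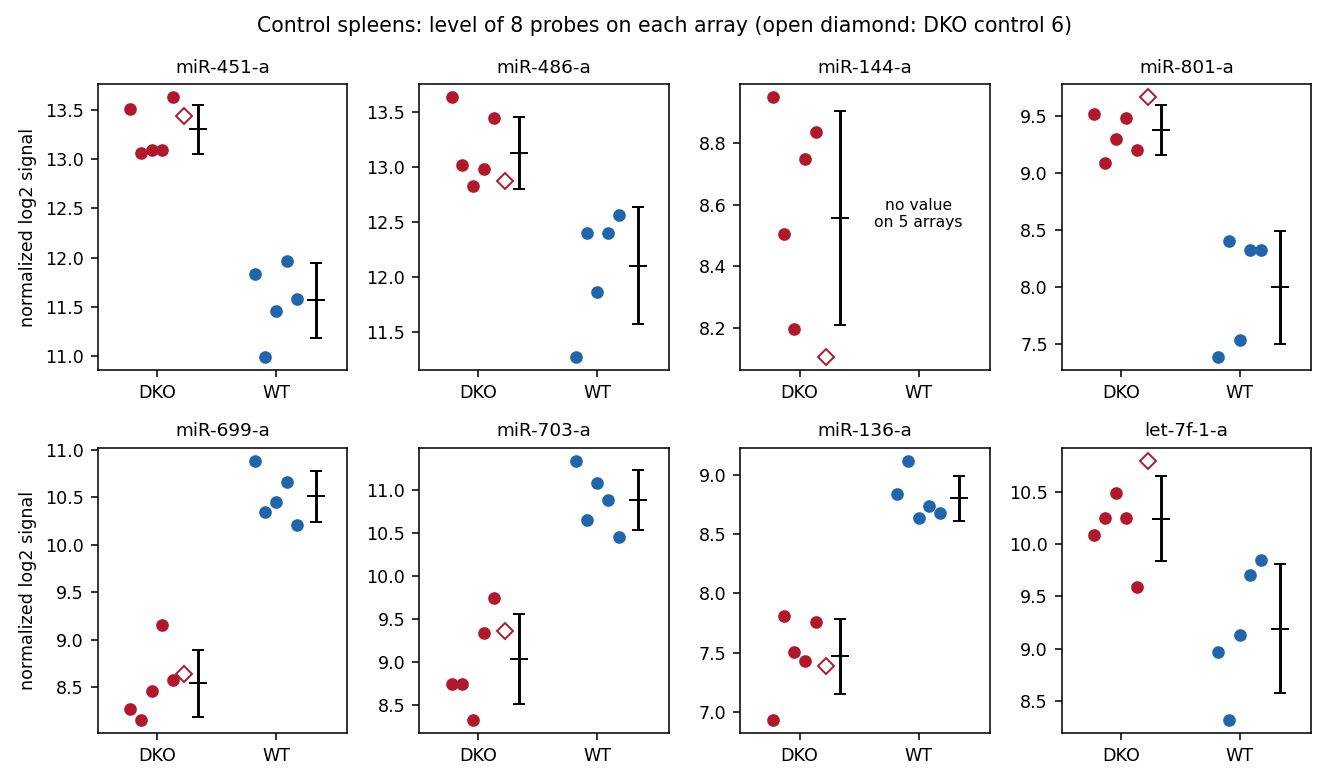
Normalized log2 signal of 8 probes on each array, DKO controls (red, n = 6) left of WT controls (blue, n = 5), with the mean and SD of each group as black bars and DKO control 6 as an open diamond. The vertical axes differ between panels and do not start at 0. The groups do not overlap for miR-451, miR-486, miR-801, miR-699, miR-703 and miR-136, and miR-144 has no value on the 5 WT arrays.

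Probes of the let-7 family, which restrains growth-promoting genes and is abundant in differentiated tissue, were on the higher side in DKO. let-7f-1 ranged from 9.60 to 10.80 with a median of 10.25 in DKO controls, and was 8.96, 8.31, 9.13, 9.70 and 9.84 in WT controls. Only the lowest DKO control lay within the WT range. The change was 1.06 ± 0.27 (2.08-fold, adjusted p = 0.0101), and that of let-7f-2, a probe for the same mature sequence, was 1.02 ± 0.28 (adjusted p = 0.0154). Of 11 tested let-7 probes 2 passed, both named for let-7f, and all 11 changes were positive, from 0.14 for let-7i to 1.06, with a median of 0.48 against −0.02 over all probes. Of all tested probes 5.83% passed as higher. let-7e changed by 0.88 ± 0.32 (adjusted p = 0.0524), let-7d-5p by 0.48 ± 0.18 (adjusted p = 0.0622) and let-7a-1 by 0.46 ± 0.18 (adjusted p = 0.0713). Most of the family also differed between the arrays above and below a miR-370 signal of 10 within groups. Of the 11 probes 9 passed in that comparison, all of them higher above 10, by 0.61 to 1.14. let-7c-2 and let-7d-5p were also higher above 10, by 0.48 and 0.22, and did not pass (adjusted p = 0.1 and 0.435). DKO control 6 is on that side, and its own values are part of that comparison. Without DKO control 6 the median change of the family was 0.40, that of let-7f-1 was 0.94 (adjusted p = 0.0223) and that of let-7i was −0.06. With the side of that signal as a term of the fit the median was 0.36. let-7f-2 lost its call without WT control 2 (adjusted p = 0.0672).

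miR-16, which slows the cell cycle, is represented by probes for its copies on chromosomes 14 and 3, and these share a mature sequence. miR-16-1 ranged from 12.35 to 13.38 with a median of 12.70 in DKO controls, and was 12.49, 11.04, 11.93, 12.49 and 12.32 in WT controls. The WT range reached into that of DKO, and WT control 2 was the lowest array. The changes were 0.70 ± 0.21 for miR-16-1 (adjusted p = 0.0295) and 0.72 ± 0.22 for miR-16-2 (adjusted p = 0.0324). Without DKO control 6 neither passed (0.57, adjusted p = 0.0698, and 0.67, adjusted p = 0.0574), nor did they without WT control 2 (0.44, adjusted p = 0.125, and 0.43, adjusted p = 0.142). With WT control 3 left out miR-16-1 had an adjusted p of 0.0539, and with DKO control 1 left out miR-16-2 had one of 0.0573.

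Of 6 tested probes with the miR-16 seed 3 passed as higher and 5 changes were positive, beside 5.83% higher over all tested probes. Both miR-16 probes, which share a mature sequence, are among the 3. miR-195, which lies in stromal cells as well, changed by 0.80 ± 0.28 (adjusted p = 0.0488), and by 0.64 without DKO control 6 (adjusted p = 0.129). Its call was also lost without WT control 2 or 3 or any 1 of DKO controls 1 to 4 (adjusted p from 0.0588 to 0.241), and its change without WT control 2 was 0.43. Its neighbour in the genome, miR-497, has the same seed and changed by −0.04 ± 0.16 (adjusted p = 0.92). The partners of miR-16 changed by 0.32 ± 0.20 for miR-15a and 0.44 ± 0.21 for miR-15b (adjusted p = 0.286 and 0.154). Both miR-30c probes passed at 0.40 ± 0.12 and 0.35 ± 0.12 (adjusted p = 0.0333 and 0.0405), and neither did without DKO control 6 (adjusted p = 0.0666 and 0.0893).

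**Figure D3:**
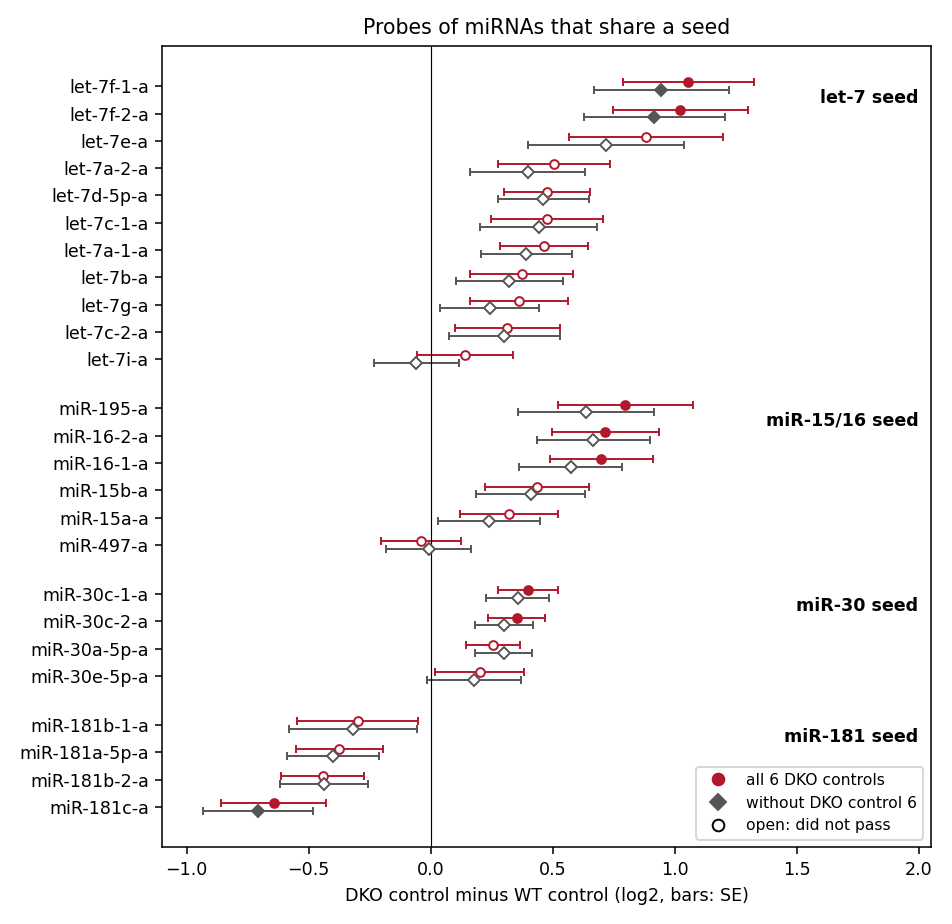
Change of each tested probe, DKO control minus WT control (log2, horizontal axis, bars SE), for miRNAs that share the seed of let-7, miR-16, miR-30 or miR-181. Circles use all 6 DKO controls and diamonds leave out DKO control 6, and filled marks passed. All 11 let-7 probes are positive with all arrays, all 4 miR-181 probes are negative, and the miR-195 and miR-16 probes are filled only with all 6 DKO controls.

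Of the miRNAs that p53 is known to raise, 0 passed as lower in the mice without it. miR-34a, whose gene p53 binds and activates, ranged from 7.62 to 8.75 with a median of 8.11 in DKO controls, and was 7.17, 8.55, 6.96, 7.66 and 8.05 in WT controls. The groups overlapped over most of their range, and the change of 0.42 ± 0.31 did not pass (adjusted p = 0.394). miR-34b, with values on 5 DKO and 3 WT controls, changed by 1.11 ± 0.48 (adjusted p = 0.128). Of 12 tested p53-responsive probes 3 were higher, 0 lower and 9 did not pass, with a median change of 0.37, beside 5.83% higher and 7.87% lower over all tested probes. At that share a count of 0 falls among 12 is no result about the list. Those that passed were both miR-16 probes and miR-22, a miRNA induced in several blood cell lineages, at 0.62 ± 0.22 (adjusted p = 0.0488). Without DKO control 6 only miR-22 of the list passed (adjusted p = 0.0433), and its call held in 8 of 21 settings and was lost without any 1 of WT controls 1 to 4 or DKO controls 1 to 4 (adjusted p from 0.0582 to 0.106).

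Other p53-responsive miRNAs did not pass in either direction. miR-192 changed by −0.28 ± 0.16 (adjusted p = 0.222) and miR-215, which shares its seed, by −0.30 ± 0.27 (adjusted p = 0.507). miR-145 and miR-143, which are transcribed together and typical of smooth muscle, changed by −0.25 ± 0.18 and 0.24 ± 0.23 (adjusted p = 0.394 and 0.542). The 5 tested probes of the miR-29 family, which limits collagen and other matrix genes, had 0 calls, with changes from −0.27 to −0.04. In the cluster led by miR-17 and its paralogs, which promote growth of lymphocytes and which p53 can repress, 0 of 10 -a probes passed and the median change was 0.07, while of 3 -p probes that of miR-363 passed as lower. At the 13.7% called over all tested probes, the counts of 0 for miR-29 and miR-17 are no result about these lists.

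In each of the myeloid, inflammation and lymphoid lists 1 of 7 -a probes passed, a share near the 13.7% over all tested probes. Myeloid miR-27a ranged from 9.98 to 10.59 with a median of 10.30 in DKO controls, and was 9.98, 9.54, 9.75, 9.07 and 10.05 in WT controls. DKO control 1 alone lay within the WT range, and the change was 0.63 ± 0.15 (1.54-fold, adjusted p = 0.00852). Its cluster partner miR-23a changed by 0.19 ± 0.13 (adjusted p = 0.346). miR-223, the most typical miRNA of granulocytes, ranged from 14.04 to 14.35 with a median of 14.21 in DKO, and was 13.82, 13.01, 13.82, 13.82 and 13.93 in WT. All DKO controls exceeded all WT controls, and the change of 0.49 ± 0.18 did not pass (adjusted p = 0.0545), while without WT control 5 it did (adjusted p = 0.0439). Of 7 myeloid probes 1 was higher, with a median change of 0.33.

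miR-155, which activated B cells, T cells and macrophages make, ranged from 12.68 to 13.01 with a median of 12.90 in DKO controls, and was 13.30, 13.82, 13.44, 13.38 and 13.63 in WT controls. Every DKO control lay below every WT control. The change of −0.63 ± 0.22 missed the threshold (adjusted p = 0.0503), and passed in 5 alternatives, with an adjusted p of 0.0384 when only the 11 arrays were fitted. miR-146b, which also answers inflammatory signals, changed by −0.40 ± 0.14 (adjusted p = 0.0524) and miR-146 by −0.19 ± 0.15 (adjusted p = 0.452). miR-21, which inflammation and growth signals induce, went the other way. It ranged from 11.48 to 12.21 with a median of 11.81 in DKO, and was 11.06, 11.87, 11.13, 11.43 and 10.75 in WT. The groups overlapped, the change was 0.59 ± 0.20 (adjusted p = 0.046), and it did not pass without DKO control 6 (adjusted p = 0.0698) or without DKO control 1 or 3 or WT control 1, 3 or 5 (adjusted p from 0.0812 to 0.109). Of 7 inflammation probes 1 was higher and 0 lower, with a median change of −0.19.

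Lymphocyte miRNAs included 1 fall. miR-181c, of a family that tunes antigen receptor signalling, changed by −0.64 ± 0.22 (adjusted p = 0.0435), and by −0.71 without DKO control 6 (adjusted p = 0.0404). Its call held in 11 of 21 settings, and was lost without WT control 2 or 5 or DKO control 1, 2, 4 or 5 (adjusted p from 0.0519 to 0.179). All 4 tested probes with its seed had negative changes, and the other 3 did not pass. Over all tested probes 7.87% passed as lower and the median change was −0.02. miR-150, abundant in mature lymphocytes, changed by 0.44 ± 0.27 (adjusted p = 0.275). Of 7 lymphoid probes 0 were higher and 1 lower, with a median change of −0.30, and the mean level of the list ranged from 11.10 to 11.49 in DKO and from 11.18 to 11.69 in WT.

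Progenitor and stromal lists were called about as often as all probes. miR-125a, which supports blood stem cells, ranged from 8.39 to 11.17 with a median of 10.13 in DKO controls, and was 7.96, 8.44, 8.70, 9.48 and 9.86 in WT controls. The DKO controls spread widely over the WT range, and the change of 1.14 ± 0.39 (adjusted p = 0.0488) held its call in 7 of 21 settings. Leaving out any 1 of WT controls 1 to 3 or DKO controls 1 to 4 ended it (adjusted p from 0.0591 to 0.143). Its neighbours let-7e and miR-99b changed by 0.88 and −0.35. miR-130a, a miRNA of megakaryocyte progenitors, fell by 0.45 ± 0.14 (adjusted p = 0.0337), and missed the threshold without WT control 2 or 4 or DKO control 1, 2 or 5 (adjusted p from 0.0522 to 0.135).

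Of 15 progenitor and megakaryocyte probes 1 was higher and 1 lower, near the 13.7% called over all tested probes, with a median change of −0.05. The -p probe of miR-196a-2, from a HOX gene cluster, fell by 0.93 ± 0.25 (adjusted p = 0.0154). Its -a probe changed by −0.29 ± 0.33 and did not pass (adjusted p = 0.592). Neither did miR-196a-1 (−1.20, adjusted p = 0.0543) or the probe named miR-196a (0.16, adjusted p = 0.695). Of 9 stromal probes, miR-195 was the 1 that passed and the median change was −0.08. Probes of other tissues gave no call among the -a rows, with 0 of 1 for the pancreas, 0 of 3 for the nervous system and 0 of 2 for striated muscle. These are too few to set against the 13.7% over all tested probes. The -p probe of the pancreatic islet miRNA miR-375 was higher by 0.87 ± 0.28 (adjusted p = 0.0337), while its -a probe changed by 0.06 ± 0.78 (adjusted p = 0.963). The -p call was lost without any 1 of WT controls 2 to 4 or DKO control 1, 2 or 5 (adjusted p from 0.0505 to 0.125).

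The other named rises were those of miR-339 (0.81), miR-328 (0.71), the -p probe of miR-335 (0.71) and miR-222 (0.68). miR-335 lies within the imprinted gene Mest. miR-222 lowers the cell cycle inhibitor p27, and its neighbour miR-221 of the same seed changed by 0.07 ± 0.19 and did not pass (adjusted p = 0.877). The call of miR-222 was kept in 8 of 21 settings, and was lost without any 1 of WT controls 1 to 3 or DKO controls 1 to 4 or 6 (adjusted p from 0.0581 to 0.102). That of miR-328 was lost without WT control 2 or 3 or any 1 of DKO controls 1 to 4 (adjusted p from 0.0512 to 0.145), and that of miR-339 without WT control 3 or DKO control 1 (adjusted p = 0.0581 at most).

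The other named falls included dim probes. miR-489 had values on 4 DKO and 3 WT controls with means of 5.19 and 7.01, miR-501-5p averaged 5.64 in DKO and 7.03 in WT, and miR-218 averaged 6.05 in DKO and 7.17 in WT. All 3 passed after normalization, at −1.82, −1.39 and −1.13. None of the 3 did on the values as deposited (adjusted p = 0.571, 0.828 and 0.618). The miR-489 call was also lost without DKO control 1 or 2, that of miR-501-5p without WT control 2, 4 or 5 or DKO control 1, and that of miR-218 without WT control 5 or DKO control 1 or 2 (adjusted p from 0.0528 to 0.106). miR-138 fell by 1.04 ± 0.25 (adjusted p = 0.00852), miR-675-3p, cut from the imprinted H19 RNA, by 1.12 ± 0.30 (adjusted p = 0.0154), and the miR-133a*-5p probe by 0.96 ± 0.22 (adjusted p = 0.0062). The miR-675-3p call held in 18 of the 20 settings that tested it, and its largest adjusted p was 0.551 (limma). The other probes named for miR-138 did not pass. miR-138-1 changed by −0.23 and miR-138-2 by −0.73 (adjusted p = 0.442 and 0.0548). Their -p probes changed by 0.14 and −0.40 (adjusted p = 0.671 and 0.0524). The -p probe of miR-363 fell by 1.19 ± 0.34 (adjusted p = 0.022), and lost its call without WT control 3 or DKO control 1 or 2 (adjusted p from 0.0522 to 0.0684). Outside the rule for named probes, a further 3 rises ran from 0.35 to 0.59 and 10 falls from −0.91 to −0.46. The miR-30c probes, the -p probe of miR-699 and that of miR-543 are among these and were named after their values were seen.

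Probes with few values could not enter the test. Of 562 probes with a value on any of the 11 arrays, 264 had one on all 11. Another 73 had 3 or more values in DKO and fewer in WT, and 7 had the reverse. By Fisher's exact test on the presence of a value, 9 probes reached an unadjusted p under 0.05 and 0 did after adjustment. The smallest p that this test can give with 6 against 5 arrays is 0.00216. A few such probes among 562 could not pass adjustment, so the count of 0 decides nothing about single probes. The extremes were miR-144 and the -p probe of miR-679, present on 6 of 6 DKO controls and 0 of 5 WT controls. On the other side miR-31, a miRNA typical of epithelial cells, was present on 1 of 6 DKO controls and on 5 of 5 WT controls, where it measured 9.68, 10.61, 9.89, 9.79 and 9.98. Its value in DKO control 5 was 9.47. DKO controls had more probes with values in general, and the part of that difference in these counts was not tested.

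Leaving out DKO control 6 kept 33 of the 47 calls, and 34 of 342 tested probes passed (9.94%), 12 higher (3.51%) and 22 lower (6.43%). This array was not far from its group over the 227 probes with a value on all 41 arrays, with a median Pearson r of 0.961 with the other DKO controls, against 0.958 to 0.975 for those. It stood alone in miR-370, with 11.31 against 8.92 to 9.23 in the other DKO controls and 8.24 to 9.34 in WT. Over the same 227 probes the lowest r within the WT controls was 0.875, against 0.936 within the DKO controls. The lowest r between a DKO and a WT control was 0.876, so some WT controls differed as much from each other. Leaving out WT control 2, which had the fewest values, kept 25 of the 47 calls, and 31 of 337 tested probes passed. With the class by miR-370 signal as a term of the fit, 40 of 337 probes passed (11.9%), 15 higher (4.45%) and 25 lower (7.42%), and 36 of them were among the 47. miR-451 changed by 1.58 in that fit (adjusted p = 0.000215), miR-699 by −1.93 and the -p probe of miR-801 by 1.86.

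**Figure D4:**
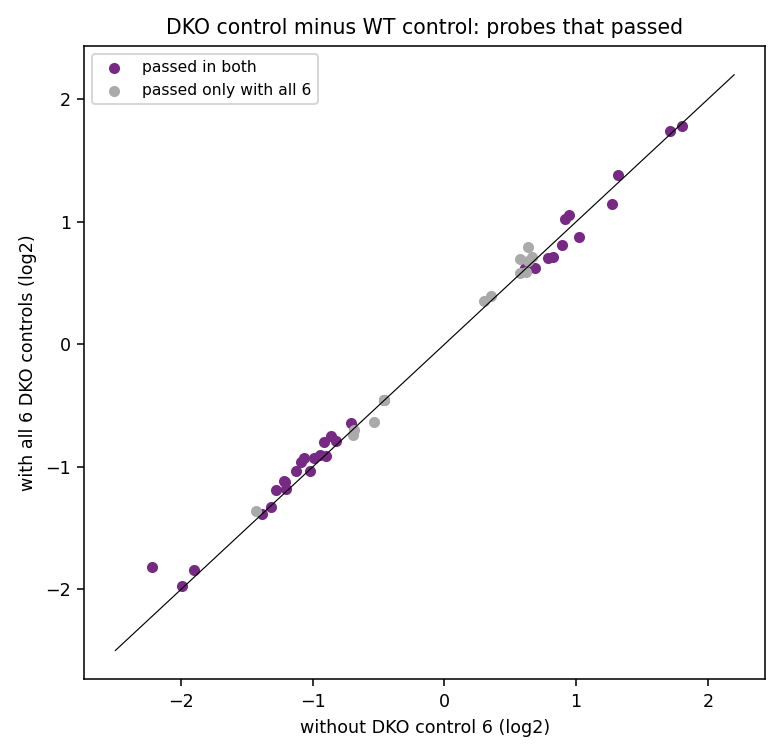
Change of the probes that passed, DKO control minus WT control (log2), with all 6 DKO controls (vertical axis) against the change without DKO control 6 (horizontal axis). Purple points passed in both fits and grey points only with all 6 arrays, and the line marks equal changes. The points lie near the line, and 33 of them are purple.

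The same genotypes after C. parvum gave a comparison on other arrays, 6 DKO and 5 WT. It is confounded in part with the class by miR-370, since 5 of the 6 DKO C. parvum arrays lie above 10 and 0 of the 5 WT C. parvum arrays do. Of 343 tested probes 75 passed (21.9%), 34 higher in DKO (9.91%) and 41 lower (12.0%). With that class as a term 6 of 341 passed (1.76%), 4 higher (1.17%) and 2 lower (0.587%). Among the 47 control calls, 43 were tested after C. parvum and 26 had the same direction, against 61.2% of all probes tested in both. In all, 12 were called in the same direction, 25.5% of the control calls and 16% of the C. parvum calls, and 1 in the opposite one. With the class as a term, 24 of 43 had the same direction, against 50.8% of all probes, and the calls held in both were the 2 probes of miR-801.

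The miR-801 probes thus differed between genotypes on both sets of arrays. Its -p probe ranged from 10.80 to 12.45 with a median of 11.81 in DKO C. parvum spleens, and was 8.96, 8.76, 8.92, 9.32 and 9.0 in WT C. parvum spleens. Again no DKO array fell within the WT range. The change was 2.75 ± 0.26 (adjusted p = 3.42e-10), and 3.13 with the class as a term (adjusted p = 4.78e-09). The -a probe changed by 1.73 ± 0.26 (adjusted p = 1.13e-05), and by 1.81 with the class as a term (adjusted p = 0.000789). A test of the difference between the control and the C. parvum changes did not pass for either (0.97 ± 0.37, adjusted p = 0.104 for -p, and 0.35 ± 0.37, adjusted p = 0.63 for -a).

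miR-451, miR-699 and miR-703 passed between DKO and WT in controls and did not pass after C. parvum. miR-451 averaged 13.19 ± 0.75 in DKO C. parvum spleens (SD, n = 6) and 13.29 ± 0.35 in WT C. parvum spleens (SD, n = 5), a change of −0.10 ± 0.32 (adjusted p = 0.875), and −0.90 with the class as a term (adjusted p = 0.22). miR-699 changed by 0.10 ± 0.28 and miR-703 by 0.04 ± 0.32 (adjusted p = 0.854 and 0.952). The change after C. parvum minus that in controls was −1.84 ± 0.45 for miR-451 (adjusted p = 0.0103), 2.07 ± 0.40 for miR-699 (adjusted p = 0.00239) and 1.88 ± 0.46 for miR-703 (adjusted p = 0.0103), among 16 of 312 probes that passed (5.13%), 8 in each direction (2.56% each). All 3 also passed with the class as a term (adjusted p = 0.000466, 0.00152 and 0.0295), among 11 of 311 probes (3.54%), 7 with a positive difference (2.25%) and 4 with a negative one (1.29%). miR-27a passed as well at −1.05 ± 0.22 (adjusted p = 0.00298, and 0.0125 with the class as a term), and its change after C. parvum was −0.43 ± 0.15 (adjusted p = 0.0422, and 0.324 with the class as a term).

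Untreated DKO spleens were therefore also set against WT spleens after C. parvum, a comparison added after the values were seen. These groups share no array with each other, but both were used above, where miR-451, miR-699 and miR-703 were picked. The differences of these probes here are therefore not independent of that choice. miR-451 averaged 13.31 ± 0.25 in DKO controls and 13.29 ± 0.35 in WT C. parvum spleens, a difference of 0.02 ± 0.32 (SE, adjusted p = 0.968). The differences were 0.27 ± 0.28 for miR-699 (adjusted p = 0.484) and −0.09 ± 0.32 for miR-703 (adjusted p = 0.864). For these 3 probes the untreated DKO level thus lay within about 1 SE of that of inflamed WT spleens, which does not show that they are equal. Other probes named above differed, with miR-486 lower in DKO controls by −1.32 ± 0.37 (adjusted p = 0.00579), miR-136 by −1.68 ± 0.29 (adjusted p = 4.39e-05) and the -p probe of miR-801 higher by 2.02 ± 0.26 (adjusted p = 5.53e-07). This comparison mixes genotype with treatment, and the share of all probes that passed in it is not given here. How usual such matches and differences are was not tested.

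**Figure D5:**
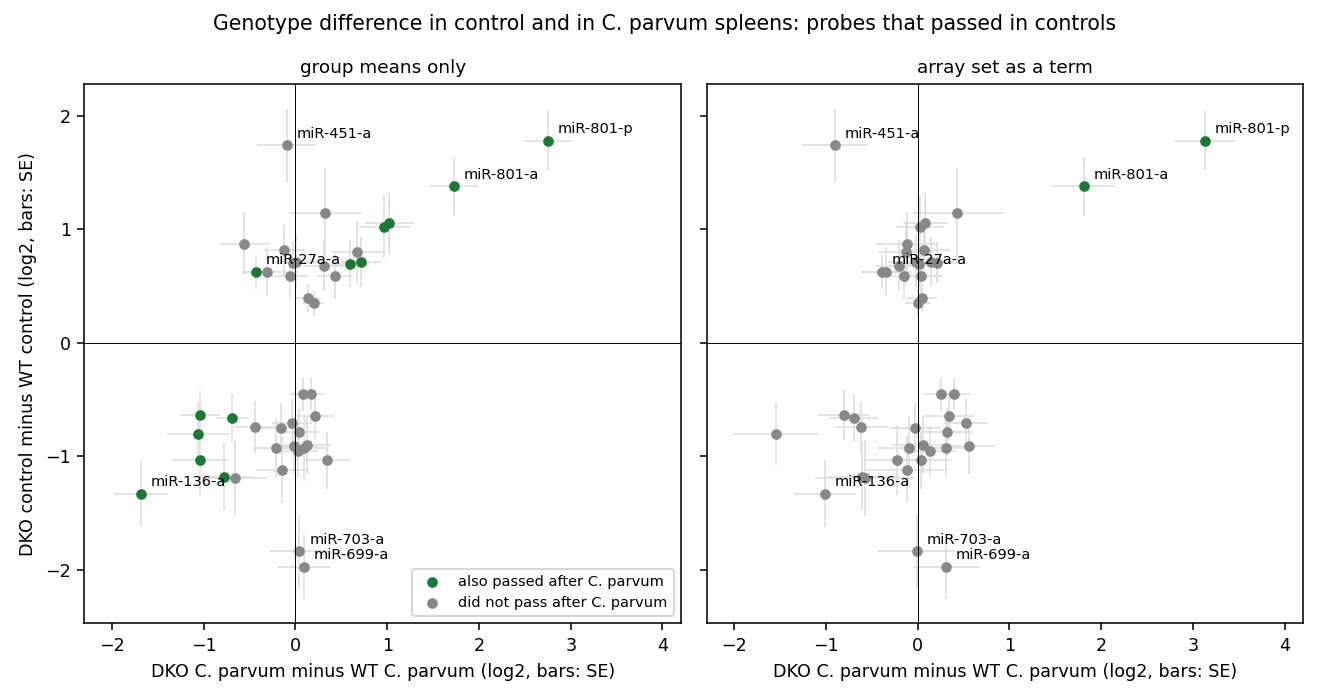
Change of the control calls after C. parvum (DKO minus WT, log2, horizontal axis) against their change in controls (DKO minus WT, log2, vertical axis), with SE bars, from group means only (left) and with the class by miR-370 signal as a term (right, titled array set). Green points also passed after C. parvum. The 2 miR-801 probes are far to the upper right in both panels, while miR-451, miR-699 and miR-703 lie near 0 on the horizontal axis at the left.

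The NOS2KO and p53KO controls, all above 10 in miR-370 signal, share the WT controls with the DKO comparison, so their values are only given beside it. The -p probe of miR-801 averaged 11.01 ± 0.25 in DKO controls (SD, n = 6), 8.69 ± 0.17 in NOS2KO controls (n = 5), 8.87 ± 0.35 in p53KO controls (n = 4) and 9.22 ± 0.76 in WT controls (n = 5). Set directly against the other knockouts, also after the values were seen, DKO controls were higher by 2.32 ± 0.26 than NOS2KO controls (adjusted p = 4.72e-08) and by 2.14 ± 0.28 than p53KO controls (adjusted p = 1.02e-06). With the class as a term these differences were 1.94 and 1.76 (adjusted p = 0.0003 and 0.00083). For the -a probe they were 1.29 ± 0.26 and 1.39 ± 0.28, and 1.21 and 1.30 with the class as a term (adjusted p = 0.0499 and 0.0355). The share of all probes that passed between DKO controls and either other knockout is not given here.

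miR-451 averaged 13.31 ± 0.25 in DKO controls, 12.71 ± 0.67 in NOS2KO controls, 11.99 ± 0.51 in p53KO controls and 11.56 ± 0.38 in WT controls. DKO exceeded p53KO by 1.32 ± 0.34 (adjusted p = 0.006), and exceeded NOS2KO by 0.59 ± 0.32, which did not pass (adjusted p = 0.219) except with the class as a term (1.39, adjusted p = 0.0416). miR-486 averaged 13.12 ± 0.33 in DKO, 12.09 ± 1.01 in NOS2KO, 10.96 ± 0.63 in p53KO and 12.10 ± 0.53 in WT controls. miR-699 was lowest in DKO, at 8.54 ± 0.35 against 9.59 ± 0.16 in NOS2KO, 9.83 ± 0.44 in p53KO and 10.51 ± 0.27 in WT controls, by −1.05 ± 0.28 against NOS2KO (adjusted p = 0.0115, and 0.0542 with the class as a term) and by −1.29 ± 0.30 against p53KO (adjusted p = 0.00275, and 0.0258 with the class as a term). For miR-136 the knockouts were close to each other, with 7.47 ± 0.32 in DKO, 7.24 ± 0.66 in NOS2KO and 7.62 ± 0.56 in p53KO, against 8.80 ± 0.19 in WT controls, and DKO differed from NOS2KO by 0.23 ± 0.29 (adjusted p = 0.631) and from p53KO by −0.15 ± 0.31 (adjusted p = 0.768). Within groups, however, miR-136 differed by −0.81 ± 0.26 between arrays above 10 in miR-370 signal and the others (limma, adjusted p = 0.0259). In the same comparison miR-451 differed by 0.96 ± 0.27 (limma, adjusted p = 0.013). The levels of the NOS2KO and p53KO controls are therefore confounded with that class.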

How the data were processed

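For 41 arrays and 637 probe rows, the authors deposited processed signals on a log2 scale, and 40.4% of the cells hold no value. The log base is inferred from the values, with a maximum of 16.9, while no source used here names the scanner, background correction or normalization. RNA was extracted with Trizol and converted to biotin-labelled cDNA, per the labels. Arrays were quantile normalized here by rank, missing cells counting as dimmest and staying missing, so a shift of all miRNAs together would not be seen. limma 3.58.1 (R 4.3.3) fitted the means of all 8 groups for each probe, with Benjamini-Hochberg adjustment over the tested probes at 0.05. A probe needed 3 values in each group compared. The procedure was tested on simulated data.

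Named probes are the 15 largest rises and falls that passed, up to 4 passing members of each list, and preset miRNAs. The members, lists and tests were chosen with earlier results of these data known. Comparisons of DKO controls with the other knockouts and with treated WT were added after the values were seen. Lists for the liver and hypoxia had no tested -a probe, and the miR-200 family had 1, which did not pass. The number of arrays limits the precision. Alternatives covered normalization, arrays fitted, missing cells, weights and each array left out.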

Additional observations from a re-analysis of the deposited data

Results flagged for a closer look

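In 99 checks of a probe within a group, 9 found an array at an end of its group, separated from the rest by more of the range than Dixon's limit allows, a rule that chance meets in about 1 of 20 groups. DKO control 6 was high in miR-195 (12.5165, against 11.45 to 11.65 in the other DKO controls), in miR-16-1 (13.3776, against 12.35 to 12.72) and in miR-370 (11.3095, against 8.92 to 9.23), and the calls of miR-195 and miR-16-1 were lost without it. WT control 2 was low in miR-16-2 (10.7325, against 11.90 to 12.35 in the other WT controls), miR-126-5p (11.9294, against 12.87 to 13.22) and miR-223 (13.0124, against 13.82 to 13.93). DKO control 5 was low in miR-222 (10.0909) and miR-130a (11.6867), and DKO control 4 in the -p probe of miR-700 (5.23392).

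The change between DKO and WT differed between C. parvum and control spleens for 6 named probes, as C. parvum minus control. These were miR-451 (−1.83697), the -p probe of miR-375 (−1.42901), miR-27a (−1.05253), miR-699 (2.06988), miR-703 (1.88358) and miR-138 (1.38146). With the class by miR-370 signal as a term, the -p probe of miR-375 and miR-138 no longer passed (adjusted p = 0.0996 and 0.0691).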

How the results depend on the processing

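For DKO control minus WT control, the count of 47 calls was 30 on the values as deposited (13 higher, 17 lower), 14 with only the groups compared, and between 34 and 63 in the other 8 settings that kept all arrays, 63 of them with array weights. Leaving out 1 array gave 19 to 59. With replicate numbers as a block 42 passed, 39 of them shared with the 47. Arrays of the same number did not deviate together (r from −0.551 to 0.0401, 0 of 5 pairs over 0.1). Whether the numbers pair the mice cannot be decided from this, since mice can be paired without such a shared deviation. For DKO C. parvum minus WT C. parvum, the count of 75 was 6 with the class by miR-370 signal as a term, 133 with array weights and 47 to 74 with 1 array left out, the lowest without WT C. parvum 1, and as deposited the calls split 55 higher and 26 lower, against 34 and 41. For the difference between these changes, the count of 16 was 27 as deposited (19 higher, 8 lower), 25 with missing cells at a low value, 57 with array weights and 14 to 34 with 1 array left out, 34 without WT control 1 and 29 without DKO control 6. Of the named control changes, reversals of sign were seen for 3 probes near 0 that had not passed. miR-126-5p gave 0.0066 as deposited, 0.0061 after median centring, 0.018 with the replicate block and −0.27 to 0.053 with 1 array left out, 0.00035 without DKO control 5. miR-29b-2 gave 0.015 with array weights and −0.15 to 0.051 with 1 array left out, and miR-29b −0.17 to 0.0081, positive without WT control 4. The cause of these moves was not tested. Missing cells limit what could be measured, since 219 of 562 probes with a value had too few for a test.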
